A study of Arabidopsis thaliana with 6 samples.

Results

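The genes described here encode the proteins of the cytosolic ribosome of Arabidopsis thaliana. They were taken by name: every row of the expression table whose description contains 60S ribosomal protein, 60S acidic ribosomal protein or 40S ribosomal protein was a member, which gave 218 of 27779 rows. Of these, 93 rows name proteins of the small (40S) subunit, 110 name proteins of the large (60S) subunit and 12 name acidic proteins of the 60S stalk; 5 rows carry XLOC identifiers in place of a locus name. The descriptions of the other 3 rows, AT2G28815, AT3G22300 and AT5G47320, place the protein in mitochondria, which goes against the name cytosolic; they were kept because the wording selects them, and are given apart. Rows whose descriptions word the protein differently, such as those of the RPL5 genes, RPL8A (AT2G18020) and RPS28C (AT5G64140), are not among the members. RNA was sequenced from whole siliques, the seed-bearing fruits, at 3 days after pollination. There were 3 libraries from wild type (WT) and 3 from the agc1-4 mutant, named for AGC1-4, an AGC-family protein kinase gene. The labels give neither the nature of the mutant allele nor the number of plants behind a library, so p-values measure the spread between these libraries.

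The cytosolic ribosome translates the messenger RNAs that leave the nucleus, and most of its proteins sit in it as single copies. The acidic stalk proteins form the arm of the 60S subunit that recruits elongation factors. In Arabidopsis nearly every ribosomal protein is encoded by a small family of paralogous genes, and these genes are known to be expressed most strongly in dividing and growing tissue. Mutations in single paralogs are known from screens for altered leaf shape, embryo lethality and changes in gynoecium patterning.

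The libraries held 7973366 to 11812934 estimated counts, of which 261441 to 382413 fell on the members. The locus AT5G40030, which the table describes only as a protein kinase and which is taken as AGC1-4 from general knowledge of its name, checks the genotype labels. It had FPKM values (the authors' level per length, scaled to the depth of the library) of 0.63, 1.78 and 1.01 in WT and 0.09, 0.39 and 0.07 in agc1-4. It fell by 2.66 ± 0.54 (SE) on the log2 scale (adjusted p = 0.000983, edgeR quasi-likelihood test with Benjamini-Hochberg adjustment over all 18828 genes tested, n = 3 per group). Markers of green valve tissue, seed coat and endosperm were all detected. Of the embryo markers, LEC1 averaged 5.90 FPKM over the 6 libraries, WOX8 1.66 and WOX2 0.102.

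Most ribosomal protein transcripts had slightly higher levels in agc1-4 siliques, by a median of 1.10-fold, and the genes that passed the test all moved upward. A gene was called when its adjusted p in the edgeR test was under 0.05. Of the 218 members, 8 were listed at 0 in every library, 6 more had at most 10 counts in any library and were not tested, and 204 were tested. The test called 42 of the 204 higher in agc1-4 (20.6%), where 6.55% of all genes tested were called higher. It called 0 lower, where 7.07% of all genes were called lower. At an unadjusted p under 0.05 the edgeR test put 84 members higher and 0 lower, DESeq2 75 and 0, and limma 81 and 1. The shares of all genes at this unadjusted threshold were not taken, here or for the lists below, so these counts have no background. The median log2 fold change of the tested members was 0.14, with quartiles of 0.07 and 0.22 and a range from -0.84 to 1.44, and the median over all genes tested was 0.00. The log2 fold change was above 0 for 192 of the 204 members (94.1%), where 50.3% of all genes lay above 0. In 82 members (40.2%) every agc1-4 FPKM was above every WT FPKM, where 14.5% of all genes showed this order. In 0 members was every agc1-4 FPKM below every WT FPKM, where 15.0% of all genes showed that order. These counts shrink once the length of the transcripts is taken into account, as described further on.

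**Figure D1:**
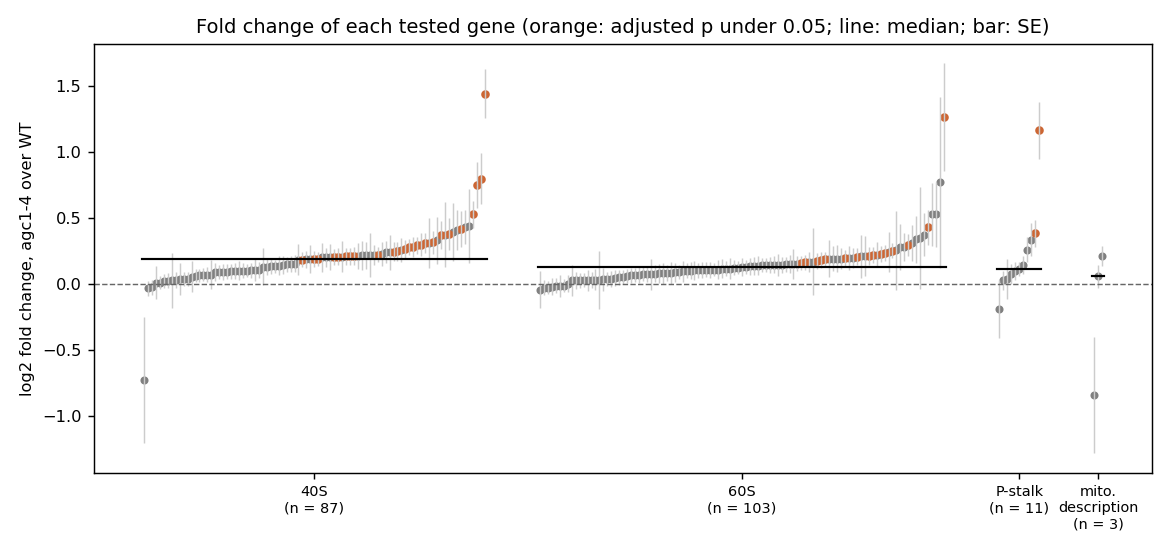
The log2 fold change (agc1-4 over WT, vertical axis) of each of the 204 tested members, ordered by size within the 40S, 60S and stalk proteins and the 3 rows of mitochondrial description; grey bars are SE, orange points have an adjusted p under 0.05 in edgeR and black lines are medians. Most points lie between 0 and 0.3, with medians of 0.19 for 40S, 0.13 for 60S and 0.11 for stalk proteins, and no point below 0 is called.

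Within single libraries the members took 3.09%, 2.87% and 3.12% of all counts in WT and 3.24%, 3.24% and 3.42% in agc1-4. All 3 mutant shares lay above all 3 WT shares. The means were 3.03% ± 0.138 (SD, n = 3) and 3.30% ± 0.101 (SD, n = 3), a ratio of 1.09 (exact two-sided permutation test, p = 0.1, the smallest that 3 against 3 allows). On FPKM the members took 4.86% ± 0.192 in WT and 5.22% ± 0.147 in agc1-4 (SD, n = 3 each), a ratio of 1.07. The libraries did not contribute evenly. The median member, relative to its own mean over the 6 libraries on the log2 scale, lay at -0.03, -0.17 and 0.00 in WT and at 0.05, 0.05 and 0.12 in agc1-4. WT replicate 2 was the lowest library for 136 of the 204 members, and agc1-4 replicate 3 was the highest for 132.

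**Figure D2:**
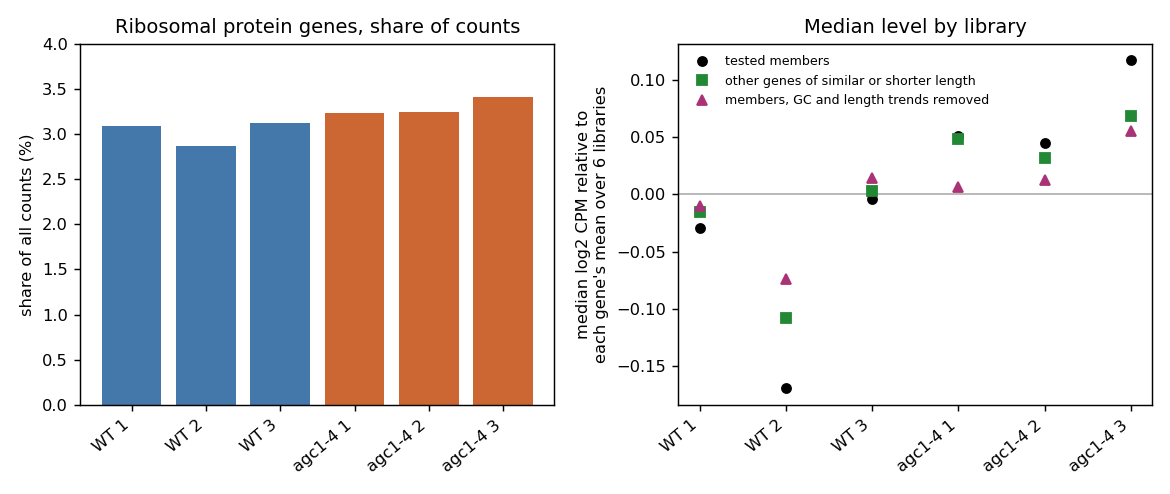
Left, the share of all counts (%) that fell on the 218 members in each library, WT in blue and agc1-4 in orange. Right, the median log2 level of each library relative to the genes' means over 6 libraries, for the members (black), for the 3185 other tested genes of at most 1115 bases (green) and for the members after trends in GC content and length were removed (purple). WT replicate 2 is lowest and agc1-4 replicate 3 highest in all 3 sets.

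The number of called members depended on which library was left out. Without WT replicate 2 it was 26 (background 6.16% of all genes higher), and the median log2 fold change fell to 0.09. Without WT replicate 3 it was 70 (background 7.51%). It was 13 without agc1-4 replicate 2 (background 4.57%) and 13 without agc1-4 replicate 3 (background 4.45%). No member was called lower in any of these fits.

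Proteins of the 40S subunit supplied 25 of the 42 calls, out of 87 tested genes (28.7%, against 6.55% of all genes). Their median log2 fold change was 0.19. RPS15B (AT5G09490) showed the largest rise of any member. It encodes one of several copies of S15, a protein of the 40S head near the decoding site. Its FPKM was 5.71, 6.90 and 4.52 in WT and 16.2, 14.1 and 17.3 in agc1-4, with no overlap between the groups. The log2 fold change was 1.44 ± 0.19 (SE; 2.72-fold; edgeR, adjusted p = 2.51e-06, n = 3 per group). The other tested S15 genes did not pass the test. RPS15A (AT1G04270), the most abundant of the S15 members, had 341 ± 10.7 FPKM in WT and 366 ± 9.43 in agc1-4 (SD, n = 3 each), a log2 fold change of 0.10 (adjusted p = 0.218, edgeR). RPS15C (AT5G09500) and RPS15D (AT5G09510) are the next protein-coding genes on the chromosome after RPS15B in the RefSeq annotation, and had log2 fold changes of 0.04 and 0.11 (adjusted p = 0.888 and 0.296, edgeR). RPS15B therefore went from 1.27% ± 0.284 to 3.19% ± 0.245 of the summed FPKM of the S15 members (SD, n = 3 each), and that sum went from 451 to 495 FPKM.

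RPS16B (AT3G04230) encodes a minor copy of S16, whose tail reaches the peptidyl-tRNA site. It had 23.8, 17.95 and 20.5 FPKM in WT and 30.1, 28.7 and 30.2 in agc1-4. The lowest mutant library was well above the highest WT library, and the log2 fold change was 0.53 ± 0.11 (SE; edgeR, adjusted p = 0.000851). The most abundant S16 member, RPS16C (AT5G18380), had 454 ± 67.4 and 506 ± 10.4 FPKM (SD, n = 3 each) and was not called (log2 fold change 0.20, adjusted p = 0.309, edgeR). Its WT replicate 2 value of 376 was the lowest of the 6, against 487 to 514 in the other libraries.

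S28 is a small protein beside the messenger RNA exit channel, and 2 members encode it. AT3G10090 had 14.9, 9.40 and 16.8 FPKM in WT and 18.6, 25.4 and 26.8 in agc1-4, a log2 fold change of 0.80 ± 0.19 (SE; edgeR, adjusted p = 0.00726). The groups did not overlap, although the nearest values, 16.8 and 18.6, were close. AT5G03850, the more abundant of these members, was at 0.20 on the log2 scale (edgeR, adjusted p = 0.0673). AT3G10090 thus rose from 11.4% ± 1.77 to 16.3% ± 2.49 of the FPKM of these 2 members (SD, n = 3 each), the largest shift of share within any family of members. RPS28C (AT5G64140), outside the members, is not part of these shares.

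RPS27AA (AT1G23410) encodes ubiquitin fused to the ribosomal protein S27a. It had 5.91, 9.96 and 7.09 FPKM in WT and 11.8, 14.2 and 13.8 in agc1-4, and the log2 fold change was 0.75 ± 0.17 (SE; edgeR, adjusted p = 0.00327). In the RefSeq annotation its 885-base transcript is overlapped over its whole length by CAF2 (AT1G23400) on the opposite strand, and the strand setting of the counting is not given, so reads of the pair cannot be told apart. CAF2 itself had 11.4 ± 0.419 FPKM in WT and 10.8 ± 0.608 in agc1-4 (SD, n = 3 each) and a log2 fold change of -0.08 (adjusted p = 0.616, edgeR).

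Smaller rises were spread over many other 40S proteins. RPS19B (AT5G15520), a copy of S19 of the 40S head, had 12.5, 10.3 and 15.9 FPKM in WT and 18.7, 15.8 and 16.1 in agc1-4. The groups overlapped slightly, and the log2 fold change was 0.42 (adjusted p = 0.0389, edgeR). In the RefSeq annotation AT5G15530, at a mean of 13.7 FPKM, overlaps RPS19B by 192 bases on the opposite strand. Reads of those bases cannot be told apart. AT1G57540, described only as a 40S ribosomal protein, had 16.1, 13.7 and 15.6 FPKM in WT and 18.7, 20.9 and 20.1 in agc1-4, a log2 fold change of 0.38 (adjusted p = 0.0352, edgeR). Of the abundant 40S genes, RPS23B (AT5G02960), a copy of the S23 protein of the decoding centre, had 478, 416 and 487 FPKM in WT and 512, 535 and 523 in agc1-4 (log2 fold change 0.18 ± 0.06, adjusted p = 0.0328, edgeR). The S14, S17, S19, S26 and S30 families had 2 called genes each. RPS17A (AT2G04390) had 136, 134 and 132 FPKM in WT and 155, 161 and 173 in agc1-4, with a log2 fold change of 0.28 ± 0.06 (SE; edgeR, adjusted p = 0.00157), but its coding sequence is 97.7% identical to that of another gene, so the split of reads between these copies is uncertain.

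Proteins of the 60S subunit gave 15 calls out of 103 tested genes (14.6%, against 6.55% of all genes), with a median log2 fold change of 0.13. RPL41C (AT3G08520) had the largest fold change among them, 1.26 ± 0.41 on the log2 scale (SE; edgeR, adjusted p = 0.0369). L41 is a very short peptide at the subunit interface, and the gene had few reads, with counts of 3, 10 and 14 in WT against 26, 17 and 24 in the mutant. Its coding sequence is 98.7% identical to another gene's, so this value is uncertain. RPL39B (AT3G02190) encodes a copy of L39, which lines the exit tunnel of the nascent chain. It had 37.0, 27.3 and 42.5 FPKM in WT and 43.3, 46.7 and 52.7 in agc1-4, a log2 fold change of 0.43 ± 0.13 (SE; edgeR, adjusted p = 0.0377). The highest WT value and the lowest mutant value were nearly equal. In the RefSeq annotation AT3G02200, at a mean of 49.9 FPKM, overlaps RPL39B by 148 bases on the opposite strand. Reads of those bases cannot be told apart.

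RPL23AB (AT3G55280) was the one 60S gene called in each of 15 other fits of the data. It encodes a copy of L23a, a protein at the mouth of the exit tunnel, and had 144, 151 and 170 FPKM in WT and 178, 191 and 191 in agc1-4. All mutant values lay above all WT values, and the log2 fold change was 0.25 ± 0.06 (SE; edgeR, adjusted p = 0.00381). The most abundant member of all, RPL19A (AT1G02780), had 588, 553 and 558 FPKM in WT and 536, 544 and 589 in agc1-4. The groups overlapped, and the log2 fold change was -0.03 ± 0.05 (SE; edgeR, adjusted p = 0.784). Of the next most abundant, RPL37AC (AT3G60245), a zinc-binding 60S protein, had 479, 466 and 470 FPKM in WT and 512, 506 and 525 in agc1-4 without being called (log2 fold change 0.12, adjusted p = 0.109, edgeR), and RPS8A (AT5G20290) of the 40S subunit had 482 ± 12 and 505 ± 27.4 FPKM (SD, n = 3 each; log2 fold change 0.06, adjusted p = 0.471, edgeR).

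**Figure D3:**
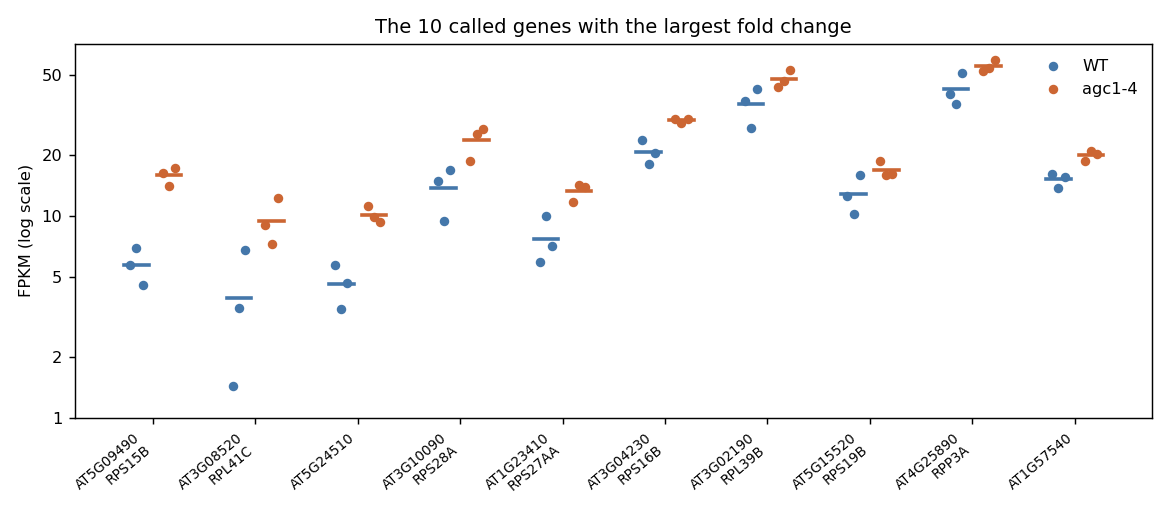
FPKM (log scale) in each library for the 10 called members with the largest fold change, WT in blue and agc1-4 in orange, with horizontal lines at the group means. The groups are separate in all but RPS19B, and group means in agc1-4 run from 9.47 to 54.8 FPKM.

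Among the stalk proteins 2 of 11 tested genes were called (18.2%, against 6.55% of all genes), with a median log2 fold change of 0.11. AT5G24510, described as a member of the acidic protein family without a number, had 5.73, 3.46 and 4.63 FPKM in WT and 11.2, 9.83 and 9.28 in agc1-4. The groups did not overlap, and the mutant level was 2.24-fold the WT level (log2 fold change 1.17 ± 0.21, SE; adjusted p = 3.20e-04, edgeR). RPP3A (AT4G25890) encodes P3, a stalk protein known only from plants, and had 40.1, 35.9 and 50.6 FPKM in WT and 51.8, 53.9 and 58.8 in agc1-4 (log2 fold change 0.38 ± 0.10, adjusted p = 0.0147, edgeR). Its more abundant partner RPP3B (AT5G57290) was at 0.03 on the log2 scale (edgeR, adjusted p = 0.853). The main gene of P0, the protein that anchors the stalk to the ribosome, RPP0B (AT3G09200), had 317 ± 17.1 and 343 ± 16 FPKM (SD, n = 3 each; log2 fold change 0.11, adjusted p = 0.178, edgeR). RPP2E (AT5G40040) is the next protein-coding gene after the AGC1-4 locus in the RefSeq order, and had 15.9, 17.5 and 13.1 FPKM in WT and 15.5, 16.2 and 16.4 in agc1-4 (log2 fold change 0.04, adjusted p = 0.917, edgeR).

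The 3 rows of mitochondrial description were not called. At an unadjusted p under 0.05, 1 passed upward in both edgeR and DESeq2. In limma, and in edgeR with the GC and length trends removed, 1 passed upward and 1 downward. AT5G47320 had 33.2 ± 1.23 and 38.6 ± 1.24 FPKM (SD, n = 3 each; log2 fold change 0.21, adjusted p = 0.0645, edgeR). AT2G28815 had the lowest fold change of all members, -0.84 ± 0.44 on the log2 scale (SE; edgeR, adjusted p = 0.228), at a mean of only 1.27 FPKM over the libraries. Of the other members below 0, RPS15F (AT5G63070), also near the limit of detection at 2.07 FPKM, was at -0.73 (adjusted p = 0.351, edgeR), RPP0A (AT2G40010) was at -0.19 (adjusted p = 0.637, edgeR), and the remaining 9 lay between -0.04 and -0.01.

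Fold changes spread more widely among genes of low level. The median log2 fold change was 0.22 in the 37 tested members with mean levels of 10.5 to 48.5 FPKM, with 11 of them called, 0.13 in the 24 members of 50.7 to 96.1 FPKM, with 5 called, 0.18 in the 61 members of 101 to 199.8 FPKM, with 15 called, and 0.12 in the 69 members above 200 FPKM, with 9 called. The medians did not fall steadily with level. No member above 200 FPKM exceeded 0.23 on the log2 scale. The 13 members under 10 FPKM ranged from -0.84 to 1.26, with a median of 0.17 and 2 called. Over all levels 6.55% of all genes tested were called higher. The share of all genes within each class of level was not taken, so the counts by class have no background of their own.

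Members were grouped into 78 families by protein, and the FPKM within a family was added up. Paralogs worded differently in the table, such as RPL8A and RPS28C, are not in these sums. All 78 sums had a higher mean in agc1-4, with ratios from 1.005 to 1.40 and a median of 1.10, but the summed FPKM of all genes was itself 2.24% higher in agc1-4. As a share of that total, a comparison added after the data were seen, 74 families were higher and 4 lower (L6, L35, L19 and the SA protein), with ratios from 0.983 to 1.37 and a median of 1.08. The unscaled ratios follow. The highest ratios belonged to L39, with sums of 114, 80.9 and 133 FPKM in WT and 133, 150 and 176 in agc1-4 (1.40), and to L41 (1.36), S29 (1.34), L38 (1.23), P2 (1.23), S28 (1.21), S21 (1.19) and S17 (1.17). For L39 the WT sum of replicate 3 and the mutant sum of replicate 1 almost met. The groups overlapped for L41, with 180 FPKM in WT replicate 3 and 150 in agc1-4 replicate 1. They also overlapped for S21, with 366 and 351 FPKM in the same libraries. Of the 8 families with the highest ratios, 4 are among the 8 families with the shortest transcripts. Spearman's rho between a family's median transcript length and its ratio was -0.53 over 78 families measured in the same 6 libraries. The lowest ratios belonged to L6 (1.005), L35 (1.01), L19 (1.02), the SA protein (1.02), S3a (1.03) and S6 (1.03), the last of these being the 40S protein that is phosphorylated by the S6 kinases. For S6 the sums were 701, 690 and 650 FPKM in WT and 684, 699 and 723 in agc1-4, and the groups overlapped.

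Of the 73 families with at least 2 detected members, 71 had the same most abundant member in both genotypes, and in S12 and S6, where the leading genes are nearly equal, the order changed. The leading member held a median of 60.4% of the summed FPKM of its family's members in WT. The largest change of any gene's share was the 4.84 points of S28 when shares were taken from mean levels, and in 14 families a share moved by more than 2 points. These shares rest on how reads of similar copies were divided, and 24 members have a copy at least 95% identical in coding sequence.

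Members are short genes, and short genes as a whole were higher in agc1-4. The median longest transcript was 921.5 bases for members and 1765.5 for other genes in the RefSeq annotation. Among members of at most 777 bases the median log2 fold change was 0.21, and among other genes of that length it was 0.19. From 777 to 921.5 bases the medians were 0.15 and 0.09, from there to 1115 bases 0.14 and 0.05, and above that 0.08 and -0.01. Members thus lay above other genes in each class of length, and the medians were closest in the shortest class. The longest class had no upper limit and held 50 members and 15283 other genes. Members and other genes were not matched for length within it. Spearman's rho between length and log2 fold change was -0.40 over 200 members and -0.21 over 18468 other genes, all measured in the same 6 libraries. The 3185 genes outside the list of at most 1115 bases followed the same library order as the members: they lay at -0.02, -0.11 and 0.00 in WT and at 0.05, 0.03 and 0.07 in agc1-4.

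Smooth trends in GC content and transcript length were then removed from each library before the test. In this fit 15 members were called higher (7.35%), where 5.68% of all genes were, and 0 were called lower, where 7.47% of all genes were. At an unadjusted p under 0.05 the same edgeR fit put 34 members higher and 5 lower, again without a share of all genes. The median log2 fold change was 0.05, and 145 of the 204 members were above 0 (71.1%, against 48.8% of all genes). By subunit, 12 of the 87 40S genes (13.8%), 2 of the 103 60S genes (1.94%) and 1 of the 11 stalk genes (9.09%) were called. The share of all genes, 5.68%, was above that of the 60S genes. Of the 15, 14 were among the 42 called without the correction. RPS15B kept a log2 fold change of 1.24 (adjusted p = 1.46e-05), AT5G24510 kept 1.04 (adjusted p = 0.000673), RPS27AA kept 0.68 (adjusted p = 0.00775), and AT3G10090 of S28 kept 0.53 (adjusted p = 0.0363, edgeR in each case). RPL41C, at 0.58 (adjusted p = 0.390, edgeR), and RPL39B, at 0.14 (adjusted p = 0.480, edgeR), were no longer called. The cause of the trends was not tested.

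**Figure D4:**
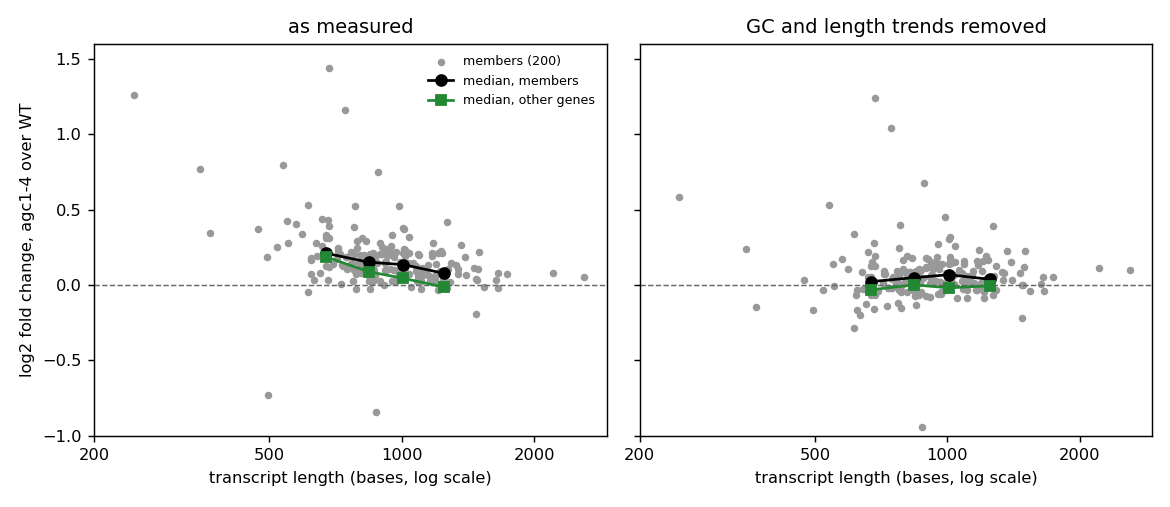
Log2 fold change (agc1-4 over WT) against transcript length (bases, log scale) for 200 tested members (grey), with medians of members (black) and of other genes (green) in 4 classes of length, as measured (left) and after trends in GC content and length were removed from each library (right). On the left both medians fall with length, from 0.21 and 0.19 to 0.08 and -0.01. On the right both lie close to 0. The longest class has no upper limit.

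Over 15 other ways of fitting the data, including each library left out in turn, 6 members were called every time: RPS15B, AT5G24510, RPS27AA, RPS16B, RPS17A and RPL23AB. Their log2 fold changes ranged from 0.25 to 1.44 in the main test, and of these genes RPS27AA and RPS17A carry the limits on read assignment given above. Other large changes held less often: AT3G10090 of S28 was called in 11 of the 15, AT1G57540 in 9, RPP3A in 7, RPL39B, RPS19B and RPS23B in 6 each, and RPL41C in 5. The share of all genes called in every fit was not taken, so the count of 6 members has no background.

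Several ribosomal protein genes are known by their mutants, and 19 of these were examined as a list, 3 of which (the RPL5 genes AT3G25520 and AT5G39740, and RPL8A, AT2G18020) are worded differently in the table and are not members. All 19 had log2 fold changes above 0, where 50.3% of all genes did, and the median of the 19 was 0.11. Of the 19, 3 were called higher (15.8%, against 6.55% of all genes) and 0 lower. At an unadjusted p under 0.05 edgeR put 8 higher and 0 lower, DESeq2 7 and 0, and limma 8 and 0. At an adjusted p under 0.05 DESeq2 put 2 higher and limma 1. After the trends were removed 1 was called (5.26%, against 5.68% of all genes). AT2G37270, a copy of S5 that RefSeq names RPS5B, had 95.2, 87.4 and 111 FPKM in WT and 112, 120 and 125 in agc1-4, with values of 111 and 112 almost meeting (log2 fold change 0.28, adjusted p = 0.0202, edgeR). AT4G00100, POINTED FIRST LEAF 2 (S13), had 156, 177 and 176 FPKM in WT and 189, 198 and 209 in agc1-4 (log2 fold change 0.22, adjusted p = 0.0113, edgeR). AT1G22780, POINTED FIRST LEAVES 1 (S18), had 151, 151 and 172 FPKM in WT and 179, 175 and 193 in agc1-4 (log2 fold change 0.20, adjusted p = 0.0308, edgeR). In both POINTED genes every mutant library was above every WT library.

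The other genes of the list did not pass the test. PIGGYBACK1 (RPL10AB, AT2G27530) had 285 ± 8.87 and 312 ± 6.49 FPKM (SD, n = 3 each; log2 fold change 0.13, adjusted p = 0.103, edgeR), and PIGGYBACK2 (AT1G33140, L9) had 284 ± 12.5 and 313 ± 7.82 (0.14, adjusted p = 0.0744), although its coding sequence is 99.1% identical to that of a neighbouring copy. SHORT VALVE1 (RPL24B, AT3G53020), known from defects of the gynoecium, had 295 ± 22.9 and 325 ± 8.97 FPKM (log2 fold change 0.14, adjusted p = 0.105, edgeR). AT3G11940, which RefSeq names RPS5A and whose loss is known to give minute-like growth, had 286 ± 15.2 and 305 ± 8.23 FPKM (log2 fold change 0.09, adjusted p = 0.279, edgeR). The embryo-essential RPL3A (AT1G43170) was at 0.07 (adjusted p = 0.427), RPS6B (AT5G10360) at 0.06 (adjusted p = 0.457), RPS6A (AT4G31700) at 0.02 (adjusted p = 0.840) and RPL10A (AT1G14320) at 0.10 (adjusted p = 0.254), all log2 fold changes from edgeR. The remaining values were 0.04 for RPL4A (AT3G09630), 0.08 for RPL4D (AT5G02870), 0.21 for RPL27AC (AT1G70600), 0.11 for RPL23AA (AT2G39460), 0.20 for AT5G03850, 0.09 and 0.05 for the RPL5 genes AT3G25520 and AT5G39740, and 0.12 for RPL8A (AT2G18020). In these 8 genes the adjusted p was 0.0673 or higher in edgeR.

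Genes that act with the cytosolic ribosome were set beside its proteins. Of 27 ribosome assembly factors, which process and assemble the subunits, 1 was called higher (3.70%, against 6.55% of all genes) and 0 lower. At an unadjusted p under 0.05 edgeR put 6 higher and 0 lower, DESeq2 2 and 0, and limma 5 and 0. At an adjusted p under 0.05 DESeq2 and limma each put 1 higher. The 27 factors had a median log2 fold change of 0.10, and also 0.10 after the trends were removed. Their summed FPKM was 766 to 771 in WT and 804 to 841 in agc1-4, with no overlap. This sum was not scaled to the summed FPKM of all genes, which was itself 2.24% higher in agc1-4. The called gene was the nucleolin NUC2 (AT3G18610), with 2.55, 1.72 and 2.83 FPKM in WT and 3.92, 4.19 and 3.97 in agc1-4 (log2 fold change 0.79 ± 0.19, SE; adjusted p = 0.00560, edgeR). Of 62 tested translation initiation and elongation factors 7 were called higher (11.3%, against 6.55% of all genes) and 0 lower, with a median of 0.06. At an unadjusted p under 0.05 edgeR put 16 of these higher and 0 lower, DESeq2 11 and 0, and limma 13 and 0. At an adjusted p under 0.05 DESeq2 put 3 higher and limma 4. AT2G31920, at 0.597 ± 0.171 and 1.75 ± 0.151 FPKM, was at 1.598 on the log2 scale (edgeR, adjusted p = 0.000627), and AT2G27700, at 2.26 ± 0.211 and 5.43 ± 0.231 FPKM, was at 1.25 (adjusted p = 5.13e-05, edgeR; SD, n = 3 each). AT1G53880 was at 0.32 (adjusted p = 0.0159) and TIF3I1 (AT2G46280), an eIF3 subunit, at 0.22 (adjusted p = 0.0171, edgeR).

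Ribosomal proteins of the organelles had median fold changes nearer to 0 or below it. Of 33 tested plastid ribosomal proteins 0 were called higher and 7 lower, where 7.07% of all genes were lower. Their median log2 fold change was -0.05. At an unadjusted p under 0.05 edgeR put 0 higher and 11 lower, DESeq2 0 and 9, and limma 1 and 9. At an adjusted p under 0.05 DESeq2 put 5 lower and limma 6. After the trends were removed 13 of the 33 were called lower in edgeR, where 7.47% of all genes were called lower in that fit. The median of the 33 was then -0.16. RPL13 (AT1G78630) fell from 117 ± 11.1 to 95.02 ± 5.86 FPKM (SD, n = 3 each; log2 fold change -0.30, adjusted p = 0.00192, edgeR), AT1G68590 had -0.30 (adjusted p = 0.00276), RPL15 (AT3G25920) -0.22 (adjusted p = 0.00710) and RPL1 (AT3G63490) -0.20 (adjusted p = 0.01002). Of 12 tested mitochondrial ribosomal proteins, which include the 3 members so described, 0 were called in either direction, with a median of 0.08. At an unadjusted p under 0.05 edgeR put 2 higher and 0 lower, DESeq2 1 and 0, and limma 3 and 1. At an adjusted p under 0.05 DESeq2 and limma put 0 in either direction. NFD3 (AT1G31817) was at 0.17 (adjusted p = 0.185, edgeR). The difference between these lists was not tested. Of 13 genes of the TOR kinase pathway, which controls ribosomal protein synthesis, and its regulators, 0 were called, and the median was -0.07. At an unadjusted p under 0.05 edgeR put 1 higher and 2 lower, DESeq2 1 and 1, and limma 1 and 1. At an adjusted p under 0.05 DESeq2 and limma put 0 in either direction. The TOR complex subunit genes LST8-2 (AT2G22040) and LST8-1 (AT3G18140) had log2 fold changes of 0.85 and -0.17 (adjusted p = 0.0765 and 0.102, edgeR). LST8-1 passed the test as lower once the trends were removed (-0.20, adjusted p = 0.0402, edgeR).

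**Figure D5:**
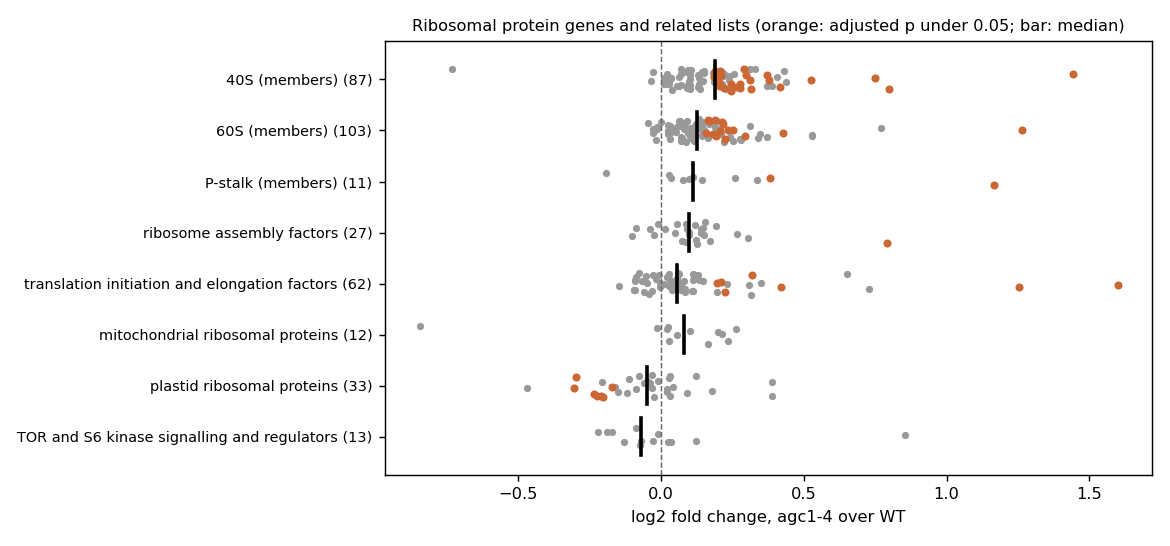
Log2 fold change (agc1-4 over WT, horizontal axis) of each tested gene in the 40S, 60S and stalk proteins and in 5 related lists, with the number tested in brackets; orange points have an adjusted p under 0.05 in edgeR and black bars are medians. Medians are 0.19, 0.13 and 0.11 for the members, 0.10 for assembly factors, 0.06 for translation factors, 0.08 for mitochondrial, -0.05 for plastid ribosomal proteins and -0.07 for the TOR pathway.

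Markers of the cell types in a silique moved as well. In these bulk libraries fewer cells of a type and less RNA per cell cannot be told apart. Of 8 markers of dividing cells, PCNA and MCM genes of DNA replication, 2 were called higher, where 6.55% of all genes were. These were PCNA2 (AT2G29570) at 0.38 (adjusted p = 0.00541) and MCM6 (AT5G44635) at 0.43 (adjusted p = 0.00322, edgeR). All 8 were above 0, with a median log2 fold change of 0.18, and their summed FPKM was 120 to 129 in WT and 144 to 148 in agc1-4. Of 3 embryo markers 2 were tested, and both were called higher (100%, against 6.55% of all genes). LEC1 (AT1G21970) was at 2.26 (adjusted p = 1.45e-07) and WOX8 (AT5G45980) at 1.30 (adjusted p = 0.00838, edgeR). WOX2 (AT5G59340) had 0.137 FPKM in WT and 0.0667 in agc1-4 and was not tested. The sum of the 3 was 2.08 to 4.01 FPKM in WT and 11.7 to 12.8 in agc1-4. Of 5 endosperm markers 3 were called higher, where 6.55% of all genes were. These were MPC (AT3G19350) at 0.63 (adjusted p = 3.82e-06), FWA (AT4G25530) at 0.39 (adjusted p = 0.000223) and ZOU (AT1G49770) at 1.24 (adjusted p = 0.00277, edgeR). AGL62 (AT5G60440) was at -0.11 (adjusted p = 0.615) and PHE1 (AT1G65330) at 0.03 (adjusted p = 0.916, edgeR). The sum of the 5 was 106 to 115 FPKM in WT and 143 to 163 in agc1-4.

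Of 3 seed coat markers 2 were called higher (66.7%, against 6.55% of all genes). TT8 (AT4G09820) and TT10 (AT5G48100) were at 0.27 and 0.47 (adjusted p = 0.00262 and 0.0189, edgeR). BAN (AT1G61720), the most abundant of the 3, was at 0.11 and was not called (adjusted p = 0.708, edgeR). The sums of the 3 overlapped, at 439 to 609 FPKM in WT and 535 to 595 in agc1-4. Both green valve markers were called lower, where 7.07% of all genes were. CAB1 (AT1G29930) was at -0.32 (adjusted p = 2.49e-05) and RBCS1A (AT1G67090) at -0.22 (adjusted p = 0.000789, edgeR). Their sum was 5832 to 6071 FPKM in WT and 4996 to 5133 in agc1-4. The pollen marker VGD1 (AT2G47040) had 48.7 to 65.0 FPKM in WT and 64.6 to 75.04 in agc1-4 (log2 fold change 0.38, adjusted p = 0.0777, edgeR). The marker sums were not scaled to the summed FPKM of all genes, which was itself 2.24% higher in agc1-4. No marker list summed to 0 in any library. The part of these tissues in the values of the ribosomal protein genes was not tested.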

How the data were processed

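The authors deposited 1 table with estimated counts and FPKM values per gene for the 6 libraries, per the file headers; the aligner, annotation, genome build and strand setting are not given in the sources used here. Per the labels' protocols, RNA was extracted with Trizol from frozen siliques. From 4.32% to 4.86% of the deposited counts in a library are not whole; all were rounded. Members and gene lists were chosen with earlier results of these data known, so their counts are descriptions. The main test was the robust quasi-likelihood F-test of edgeR 4.0.16 on these counts, with TMM scaling, edgeR's filter on low counts and Benjamini-Hochberg adjustment over the 18828 genes tested; its SE is the log2 fold change divided by the square root of F. Calls used an adjusted p below 0.05. Alternatives were DESeq2 1.42.0, limma 3.58.1 on log2(FPKM + 1) and log2(FPKM + 0.1), where a fold change of a low gene is understated, other scalings, no filter, a replicate block, each library left out, and removal per library of trends in GC content and transcript length (mgcv 1.9.3). GC content, length, gene order and copies came from RefSeq TAIR10.1, matched by locus for 213 of 218 members; the 5 unmatched rows had no correction. Coding sequences were compared with blastn 2.17.0. Names of listed genes that the table does not name come from general knowledge. Scripts were tested on simulated data. The genes named are the 10 called members with the largest fold change, the 5 with the highest level, the mutant list and up to 4 called genes of each other list (up to 2 by p where none was called); others were named after their values were seen. Same-numbered WT and agc1-4 libraries deviated together by correlations of -0.03, 0.01 and 0.03, so no pairing by number was seen. A batch shared by same-numbered libraries was not tested. Precision is limited by 3 libraries per group and 7973366 to 11812934 counts each.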

Additional observations from a re-analysis of the deposited data

How the results depend on the processing

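The number of called members was 42 in the main test. It was 23 with DESeq2, 20 with limma on log2(FPKM + 1), 19 with a pseudocount of 0.1, 12 with limma and no filter, and 11 at an adjusted p under 0.01. No share of all genes was taken beside these counts. Removal of GC and length trends gave 15 calls and a median log2 fold change of 0.0468; trends taken from other genes, a choice made after the data were seen, gave 15 and 0.0519, and length alone, likewise added, gave 13 and 0.0553. Leaving out 1 library gave 13 to 70 calls and medians of 0.09 to 0.17. RLE scaling gave 44 calls, TMM without the members 44, no filter 55, 1 gene per identical protein 36, and, both added after the data were seen, 41 without the mitochondrial and XLOC rows and 35 without near-identical or overlapping genes. 0 members were called lower in any fit, and all medians stayed above 0. The cause of these differences was not tested. The share of counts kept a ratio of 1.06 to 1.11 with each library left out.

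The replicate block gave 63 calls, 40 of them shared with the main test. Since no pairing by number was seen, this block is only another fit.

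For single named genes, 771 values stayed on the same side of the threshold and in the same direction, 97 fell short of it, 11 newly passed it and 6 changed sign, all in genes not called: RPL19A (AT1G02780) was at 0.00563 without WT replicate 1 and 0.00356 without agc1-4 replicate 1, in a range of -0.0677 to 0.00563 over the libraries left out. RPL37AC (AT3G60245) was at -0.0660 and RPS6A (AT4G31700) at -0.0305 with trends removed. RPS6A was also at -0.0326 without WT replicate 3 and -0.00748 without agc1-4 replicate 3, in a range of -0.0326 to 0.0629. AGC1-4 itself could not be tested without WT replicate 2. Depth limits the 13 tested members under 10 FPKM, whose SE ran from 0.12 to 0.48 on the log2 scale.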
